A study of Mus musculus with 8 samples.

Results

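The genes of blood coagulation and fibrinolysis, leaving out the serpin inhibitors, were examined in RNA-seq data from mouse liver. The group was defined by a list of 37 gene symbols, which were matched through Ensembl gene identifiers to a table of read counts with 45706 gene rows. Of the 37 genes 36 matched a row, and 35 passed the filter on low counts that 14645 genes passed in all. F13a1 matched but was too low to be tested, and Klkb1, the gene of plasma prekallikrein, matched no row by its identifier and was not analysed here. The model of Cyp4v3 in the count table overlaps Klkb1, and whether that row holds Klkb1 reads was not tested. Livers came from 8 C57BL/6 mice, 4 labelled HuR WT and 4 labelled HuR KO, with 1 library for each animal and no treatment named in the labels. Elavl1 encodes HuR, which binds AU-rich stretches of mRNAs. The deleted part of the gene, the cells that lack it, the Cre line and the age of the mice are not given in the labels used here.

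Clotting runs through a chain of liver-made proteases, each of which cuts and activates the next, and ends when thrombin turns soluble fibrinogen into fibrin strands. Hepatocytes secrete most of these factors, whereas von Willebrand factor, tissue plasminogen activator and thrombomodulin are made mainly by endothelial cells. Several factors work only after the liver carboxylase encoded by Ggcx has modified them with the help of vitamin K. Fibrinolysis, carried out by plasmin, dissolves the clot again.

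Total gene counts ran from 18649618 to 31249286 per library, and the members took 2.44% ± 0.17 of them under the label WT and 2.50% ± 0.26 under the label KO (mean and SD over 4 libraries, exact two-sided permutation p = 0.743, where 0.0286 is the smallest this test allows). Elavl1 itself was no lower under the label KO, at 50.02 ± 4.33 against 42.0 ± 6.41 CPM (SD, n = 4 each), the reads of a gene scaled to a common library size, so WT and KO are used here as the labels of the libraries. WT replicate 3 stood apart: its root-mean-square log2 difference over genes averaged 0.597 from the remaining WT libraries and 0.586 from the KO libraries. For the other WT libraries these averages were 0.534 to 0.566 and 0.637 to 0.662, so WT replicate 3 was the WT library nearest to KO. The animal numbers in the titles form a low series, 98 to 100 (WT replicate 3, KO replicate 3 and KO replicate 4), and a 4-digit series (the other 5 libraries). What separates these number series is not stated. The 8 matched hepatocyte markers of a list used to check the tissue summed to between 124284 and 149534 CPM in every library, Alb being the highest.

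None of the 35 members tested was called higher or lower in the libraries labelled KO by edgeR's quasi-likelihood test with Benjamini-Hochberg adjustment over all genes, where 3.69% of all genes tested were called at an adjusted p under 0.05 (2.32% higher and 1.37% lower). DESeq2, which called 7.57% of all genes, and limma-voom, which called 3.19%, also called 0 members. At an unadjusted p under 0.05 there were 7 members by edgeR and 6 by each of the other tests, and the 7 are 20% of the members against 18% of all genes tested. Of the 7, 6 were higher (9.2% of all genes) and F9 was lower (8.84% of all genes). In 2 members, Plat and F2rl1, every KO library lay above every WT library, which held for 6.19% of all genes, and in 0 members below, which held for 5.01%. Of the 35, 18 had a log2 fold change above 0 and 17 below, with a median of 0.03 beside −0.005 for all genes tested. No member was called either under the other scalings, filters and covariates tried. Without WT replicate 3 Ggcx and Tfpi2 were called higher, where 8.32% of all genes tested were called. Among the animals numbered 98 to 100 alone, where 6.45% of all genes tested were called, F2rl1 and F3 were called higher and F9 lower. That fit has 1 WT library, which is assumed to vary like the KO pair.

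The counts place upper limits on any change. For 25 of the 35 members the unadjusted 95% interval of the fold change lay within 1.5-fold in either direction, and for 31 within 2-fold. Over all genes tested these shares were 53.8% and 76.4%. Of the 18 members with a mean above 100 CPM, most of them plasma proteins secreted by hepatocytes, 17 had such an interval within 1.5-fold (81.4% of all genes at that level), and their log2 fold changes ran from −0.25 to 0.16. The exception was Fgl1. Among the 10 members under 20 CPM the log2 fold changes were wider, from −0.23 to 1.30, and 9 of the 10 were above 0, as were 4761 of all 8871 genes at that level. These level classes were chosen after the values were seen.

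**Figure D1:**
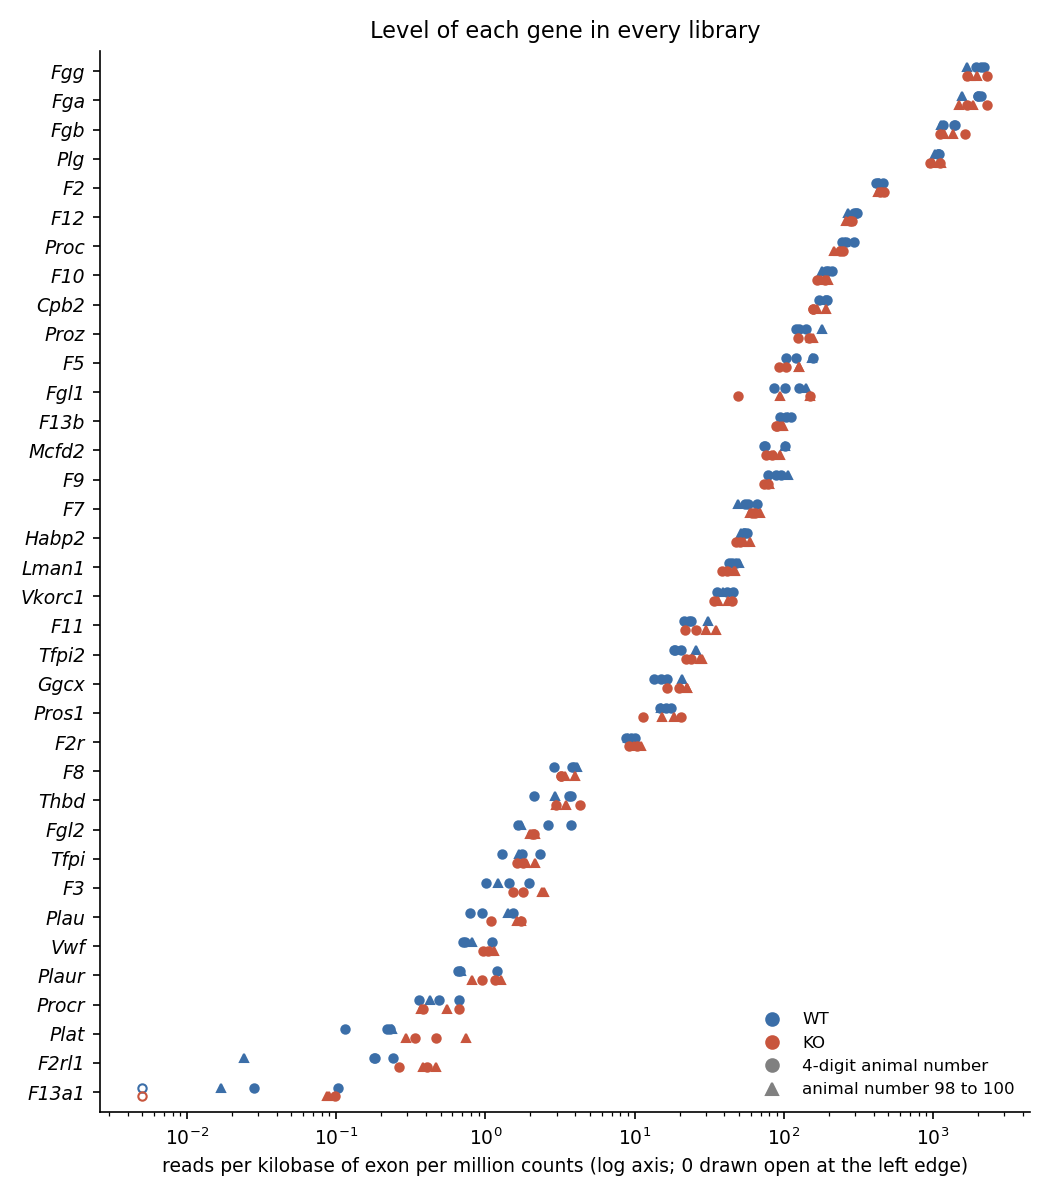
Length-scaled level (CPM per kilobase of exon, log axis) of the 36 matched genes in every library, WT in blue and KO in red, with triangles for animals numbered 98 to 100. The groups overlap at every gene except Plat and F2rl1 near the bottom, and the levels run from the fibrinogen chains at the top to F13a1, which had 0 counts in WT replicate 2 and KO replicate 2.

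**Figure D2:**
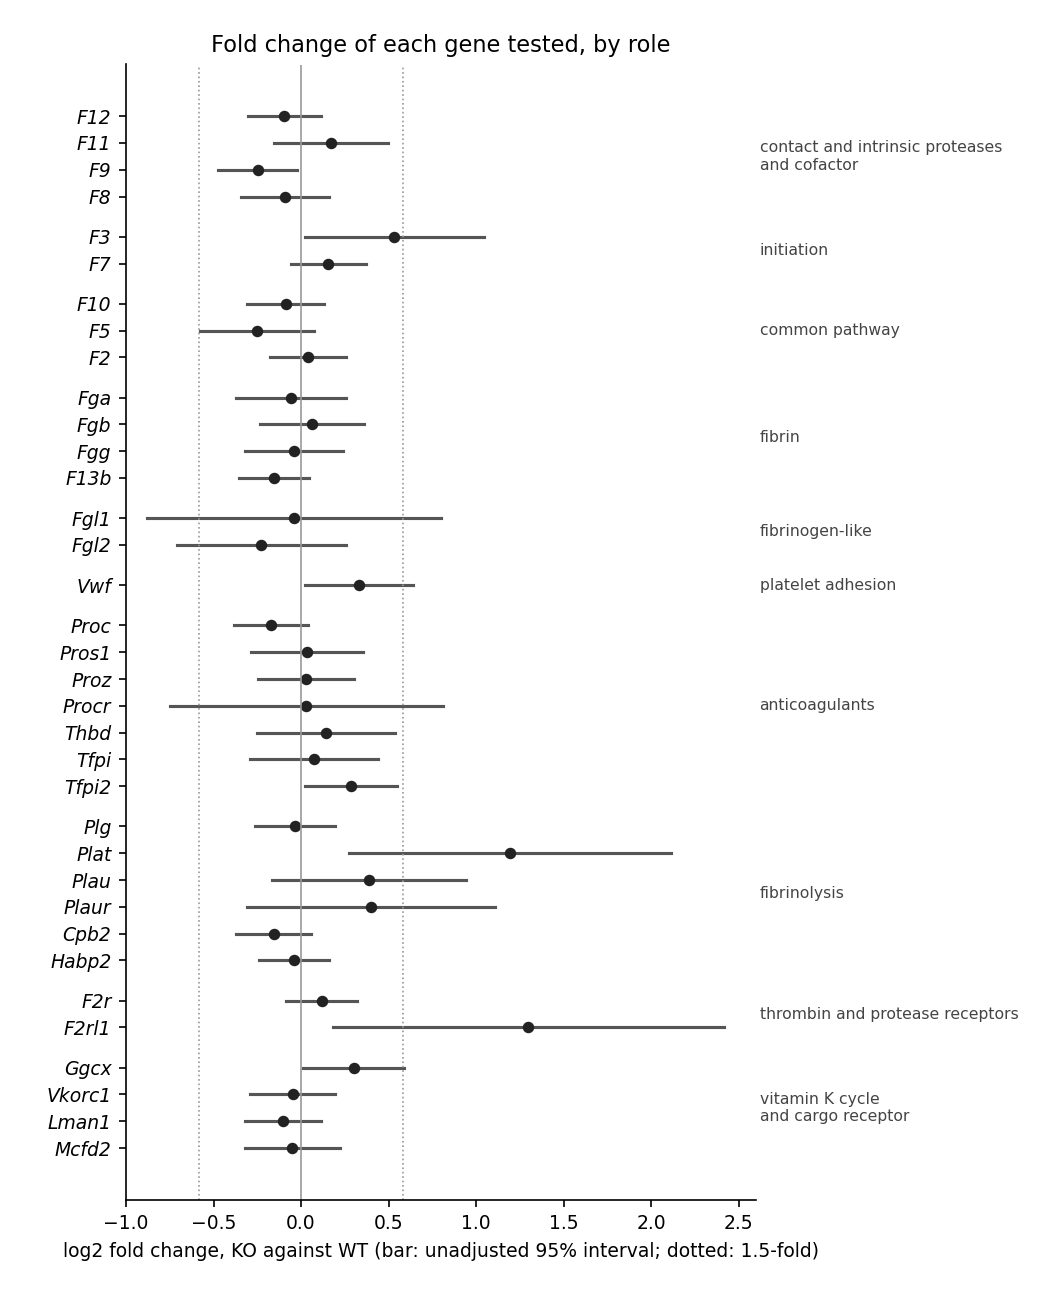
Log2 fold change of the 35 tested genes, KO against WT, ordered by role, with unadjusted 95% intervals as bars, a solid line at 0 and dotted lines at 1.5-fold. The bars of abundant factors such as F2 and Plg are narrow and cross 0, and the widest bars belong to Plat, F2rl1, Fgl1 and Procr.

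The cascade starts when F3, tissue factor, meets F7, the protease it activates. F3 (mm10 chromosome 3, 121723537 to 121735048, plus strand) was low, at 4.96, 3.62, 3.07 and 2.55 CPM in the WT replicates and 4.53, 3.85, 6.25 and 6.05 CPM in the KO replicates, given here and below in the order of their numbers. KO replicates 3 and 4 were the highest and the groups overlapped. The log2 fold change was 0.53 (SE 0.24, unadjusted p = 0.0414, edgeR adjusted p = 0.252), and within the 4-digit series the log2 difference was 0.22, within the low series 0.98. F7 stood at 107, 103, 91.6 and 123 CPM in the WT replicates and at 119, 115, 128 and 111 CPM in the KO replicates. Its log2 fold change of 0.16 (SE 0.10, edgeR adjusted p = 0.45) was within the spread of the libraries.

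The contact and intrinsic factors F12, F11, F9 and F8 feed the same cascade from its other branch. F9 (chromosome X, 59999464 to 60030759, plus strand), the protease missing in haemophilia B, was counted at 215, 241, 292 and 261 CPM in the WT replicates and 214, 200.3, 217 and 218 CPM in the KO replicates. The KO libraries lay close together, WT replicate 1 fell among them, and the other WT libraries were above. F9 had a log2 fold change of −0.25 (SE 0.11, unadjusted p = 0.0335, edgeR adjusted p = 0.226), −0.17 without WT replicate 3 and −0.32 without WT replicate 1. Within the 4-digit series the log2 difference of F9 was −0.20, and within the low series −0.42. F8, the cofactor of F9 and the factor missing in haemophilia A, was at 36.3 ± 5.30 and 34.2 ± 3.52 CPM (log2 fold change −0.09). F12, which starts the contact pathway, was at 578 ± 34.6 and 541 ± 21.6 CPM (−0.09), and F11, which F12 activates, at 56.0 ± 9.41 and 63.0 ± 12.9 CPM (0.17, SD and n = 4 each for all 3 genes). Their 95% intervals, from 0.790-fold to 1.12-fold for F8, 0.811-fold to 1.08-fold for F12 and 0.898-fold to 1.41-fold for F11, all held 1.

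The common pathway is formed by F10, its cofactor F5 and F2, prothrombin. F2 was the steadiest member over the 8 libraries, with a coefficient of variation of 4.20%. It was at 1912, 1969, 1980.1 and 2113 CPM in the WT replicates and at 2156, 2013, 2074 and 1955 CPM in the KO replicates. These ranges overlapped, and the 95% interval of the fold change ran from 0.885-fold to 1.19-fold. F10 was at 532 ± 34.3 and 500.5 ± 39.1 CPM, with a log2 fold change of −0.09. F5 was at 892, 1172, 1146 and 765 CPM in the WT replicates and 773, 685, 942 and 940.04 CPM in the KO replicates, with a log2 fold change of −0.25 (SE 0.15, edgeR adjusted p = 0.416). F7, F10 and Proz lie side by side within 49.0 kb of chromosome 8 (13026034 to 13075006, all on the plus strand), and their log2 fold changes were 0.16, −0.09 and 0.03.

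Fibrinogen is built from the Aα, Bβ and γ chains encoded by Fga, Fgb and Fgg, which lie within 42.1 kb of chromosome 3 (83007724 to 83049863). The promoters of the 3 genes are shown because the levels of the chains varied together from library to library. Each holds the 250 bases before the RefSeq start site on GRCm38.p6, the patched form of the mm10 assembly, and is written 5′ to 3′ on the strand of the gene. Capitals mark exact matches of either strand to CTGGGAA, the core of the interleukin-6 response element known from fibrinogen genes, and to GTTAAT, the core of the element bound by the hepatocyte factor HNF1, which reads ATTAAC on the other strand. They lie at chr3:83007474-83007723 (plus strand) for Fgg, chr3:83025903-83026152 (plus strand) for Fga and chr3:83049864-83050113 (minus strand) for Fgb.
Fgg: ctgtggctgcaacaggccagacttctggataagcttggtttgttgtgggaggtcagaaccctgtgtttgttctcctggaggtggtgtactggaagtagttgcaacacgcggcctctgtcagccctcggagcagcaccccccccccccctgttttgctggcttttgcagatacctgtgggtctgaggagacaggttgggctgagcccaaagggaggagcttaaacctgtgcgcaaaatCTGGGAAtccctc
Fga: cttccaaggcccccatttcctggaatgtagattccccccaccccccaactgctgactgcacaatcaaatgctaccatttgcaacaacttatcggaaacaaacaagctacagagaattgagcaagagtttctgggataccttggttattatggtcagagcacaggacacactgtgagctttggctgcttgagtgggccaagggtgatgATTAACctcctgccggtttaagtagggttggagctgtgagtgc
Fgb: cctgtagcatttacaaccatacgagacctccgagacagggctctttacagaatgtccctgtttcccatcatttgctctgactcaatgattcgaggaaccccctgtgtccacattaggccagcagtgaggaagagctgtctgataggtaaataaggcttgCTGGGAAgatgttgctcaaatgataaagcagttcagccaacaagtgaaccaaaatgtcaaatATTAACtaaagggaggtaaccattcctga
CTGGGAA was found 13 bases before the start site of Fgg and 91 bases before that of Fgb. The window of Fga holds ctgggat, which differs from CTGGGAA in the last base and was left unmarked. Only exact matches were searched, so other forms of the element are not counted here. GTTAAT was found, on the opposite strand, 43 bases before the start site of Fga and 29 bases before that of Fgb, and the matches do not overlap. The Ensembl model of Fga used for the counts starts earlier than the RefSeq one, at 83026076, which lies within the window and before its match. Of 32851 RefSeq windows reaching from 250 bases before to 50 after a start site, 11.1% hold CTGGGAA and 7.1% hold GTTAAT on either strand. Of the 27 members with such a window 6 hold CTGGGAA and 7 hold GTTAAT in any of their windows. These counts are of genes and the percentages of single windows, so they cannot be compared directly.

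Scaled by exon length, Fgg and Fga were the highest members in every library, followed by Fgb. Fga was at 6314, 6002, 4676 and 6002 CPM in the WT replicates and 6974, 5106, 5546 and 4466 CPM in the KO replicates. Fgb was at 5239, 4475, 4279 and 5326 CPM and at 6194, 4226, 5220.3 and 4538 CPM in the same order. Fgg was at 4622, 4047, 3513 and 4406 CPM and at 4814, 3523, 4099 and 3704 CPM. KO replicate 1 was the highest library for all 3 chains. The lowest was KO replicate 4 for Fga, KO replicate 2 for Fgb and WT replicate 3 for Fgg, and the groups overlapped. The log2 fold changes were −0.06 for Fga, 0.06 for Fgb and −0.04 for Fgg, with 95% intervals from 0.772-fold to 1.20-fold, 0.851-fold to 1.28-fold and 0.801-fold to 1.18-fold. The chains made up 54.3% to 63.7% of the members' counts in a library.

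Across the 8 libraries the log2 CPM of Fgb and Fgg correlated with Pearson's r = 0.921 (exact permutation p = 0.000397) and Spearman's rho = 0.929 (exact permutation p = 0.00223). Fga and Fgg gave r = 0.913 (exact permutation p = 0.00246) and rho = 0.905 (exact permutation p = 0.00456). Fga and Fgb gave r = 0.795 (exact permutation p = 0.0191) and rho = 0.762 (exact permutation p = 0.0368). These were the 3 pairs computed, and the Benjamini-Hochberg adjusted values were 0.00119, 0.00368 and 0.0191 for r and 0.0067, 0.00685 and 0.0368 for rho in the same order, by exact permutation. Without the 2 libraries farthest from the median of the first gene of each pair, r was 0.861, 0.935 and 0.806. These were KO replicates 1 and 2 for Fgb and Fgg, with Fgb as first gene. They were WT replicate 3 and KO replicate 4 for both pairs with Fga, the first gene there. All points share the scaling of their library. No correlation was computed within a number series, since neither holds 6 libraries. In a fit with genotype and series as terms all 3 chains were lower in the animals numbered 98 to 100, and none was called. The log2 fold changes were −0.32 for Fga, −0.15 for Fgb and −0.19 for Fgg. The part of the series in the correlations was not tested.

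**Figure D3:**
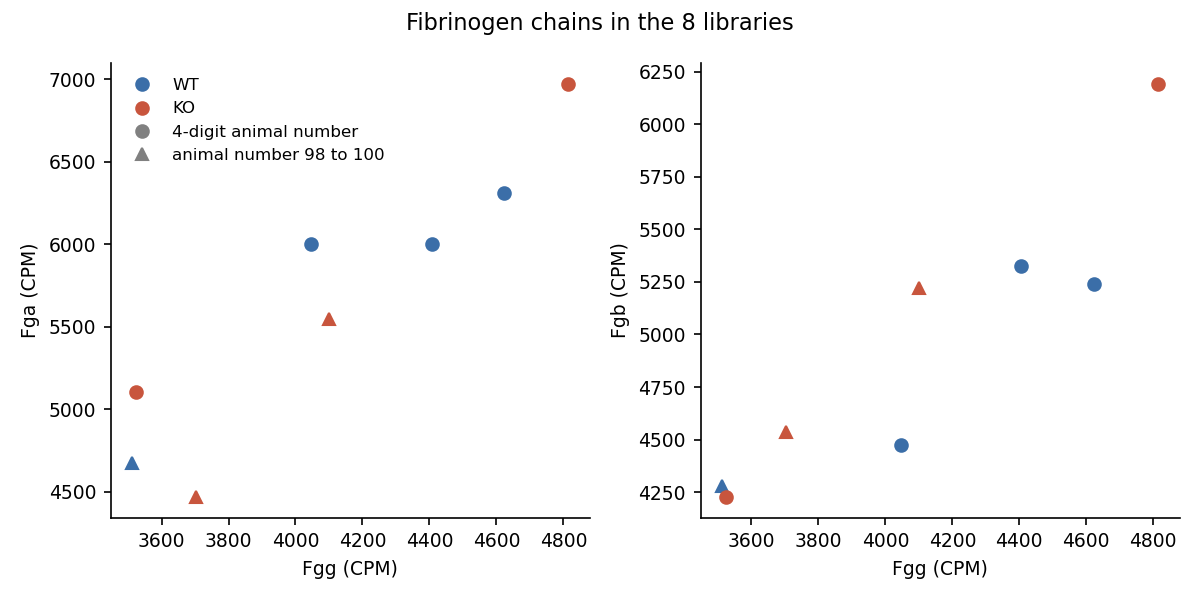
CPM of Fga (left) and Fgb (right) against CPM of Fgg, 1 point for each of the 8 libraries, WT in blue and KO in red, with triangles for animals numbered 98 to 100. The points rise from lower left to upper right, and blue and red points are mixed along the range.

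Factor XIII crosslinks fibrin. Its B subunit gene F13b was at 261, 283, 268 and 239 CPM in the WT replicates and 227, 226, 250.4 and 241 CPM in the KO replicates (log2 fold change −0.16, SE 0.09, edgeR adjusted p = 0.414). F13a1, the catalytic A subunit gene expressed mainly by macrophages and platelets, had at most 11 counts in any library and 0 in WT replicate 2 and KO replicate 2, below what could be compared. Fgl1, a fibrinogen-related protein secreted by hepatocytes, was the most variable member above 20 CPM, with a coefficient of variation of 31.8%. It was at 562, 382, 623 and 451 CPM in the WT replicates and 662, 219, 667 and 416 CPM in the KO replicates, KO replicate 2 being lowest. Its log2 fold change of −0.04 therefore had a wide 95% interval, from 0.544-fold to 1.74-fold, and the data are compatible with a change within those limits. Fgl2, a membrane-bound prothrombinase of immune and endothelial cells, was at 9.21 ± 3.68 and 7.90 ± 0.29 CPM (log2 fold change −0.23).

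Vwf, which tethers platelets and carries F8 in plasma, was at 11.7, 11.4, 13.1 and 17.8 CPM in the WT replicates and 15.4, 16.6, 18.3 and 17.3 CPM in the KO replicates. WT replicate 4 lay among the KO libraries and the other WT libraries lay below them. Vwf had a log2 fold change of 0.33 (SE 0.15, unadjusted p = 0.0382, edgeR adjusted p = 0.241). The summed level of 11 endothelial markers ranged from 577 to 654 CPM in WT and from 622 to 689 CPM in KO libraries, none of them was called, and their median log2 fold change was 0.02. In 3 of the 11 the groups did not overlap, against 11.2% of all genes tested. These were Pecam1 (log2 fold change 0.23) and Eng (0.20), with KO above, and Emcn (−0.40), with KO below. In bulk liver a different number of cells of a type and a different amount of RNA per cell cannot be told apart. The part of the endothelial share in the difference of Vwf was not tested.

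The anticoagulant members act against the cascade at several steps. Proc, the vitamin K-dependent protease that inactivates F5 and F8, was at 387, 407, 404 and 459 CPM in the WT replicates and 372, 392, 369 and 339 CPM in the KO replicates (log2 fold change −0.17, SE 0.10, edgeR adjusted p = 0.391). KO replicate 2 lay above WT replicate 1, and the groups overlapped. Pros1, its cofactor protein S, was at 65.0 ± 4.92 and 66.6 ± 15.8 CPM (0.04), and Proz, a cofactor in the inhibition of F10, at 339.8 ± 62.4 and 346.7 ± 34.7 CPM (0.03). Thbd, thrombomodulin, was at 11.6 ± 2.83 and 12.7 ± 2.38 CPM (0.14), and Procr, the endothelial protein C receptor, at 0.986 ± 0.27 and 1.001 ± 0.29 CPM (0.03). Tfpi, the inhibitor of tissue factor with F7, was at 9.60 ± 2.30 and 10.1 ± 1.19 CPM (0.07, SD and n = 4 each for these 5 genes).

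Tfpi2, a related inhibitor of plasmin and other proteases (chromosome 6, 3962589 to 3974650, minus strand), was at 29.8, 33.6, 42.2 and 30.4 CPM in the WT replicates and 38.8, 36.1, 46.5 and 44.6 CPM in the KO replicates. WT replicate 3 was the 1 WT library among the KO values. The log2 fold change was 0.29 (SE 0.12, unadjusted p = 0.0343, edgeR adjusted p = 0.228). Within the 4-digit series the log2 difference was 0.26, and within the low series 0.11. With the series as a covariate the log2 fold change was 0.21 (edgeR adjusted p = 0.21). Without WT replicate 3 it was 0.41 and was called (edgeR adjusted p = 0.0309), in a fit whose low-series animals are all KO.

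In fibrinolysis, Plg encodes the plasminogen of hepatocytes and Plat and Plau the proteases that activate it. Plg was at 2958 ± 80.2 and 2884 ± 240 CPM (SD, n = 4 each), with a 95% interval of the fold change from 0.832-fold to 1.14-fold. Plat, tissue plasminogen activator (chromosome 8, 22757744 to 22782847, plus strand), was at 0.583, 0.288, 0.595 and 0.555 CPM in the WT replicates and 0.852, 1.18, 0.738 and 1.88 CPM in the KO replicates. The KO libraries all lay above the WT libraries. Plat had a log2 fold change of 1.19 (SE 0.43, unadjusted p = 0.0146, edgeR adjusted p = 0.151), a 2.29-fold difference with a 95% interval from 1.21-fold to 4.32-fold that rests on 7 to 50 counts per library. Within the 4-digit series the log2 difference was 1.02, and within the low series 0.91.

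Plau, urokinase, was at 2.74 ± 0.84 and 3.62 ± 0.71 CPM (log2 fold change 0.39, edgeR adjusted p = 0.473), and its receptor gene Plaur at 1.12 ± 0.36 and 1.46 ± 0.29 CPM (0.40, edgeR adjusted p = 0.579). Cpb2, a carboxypeptidase of plasma that slows clot dissolution, was at 288, 252, 277 and 284 CPM in the WT replicates and 229, 231, 283 and 244 CPM in the KO replicates (−0.16, SE 0.10, edgeR adjusted p = 0.447). Habp2, a plasma protease that activates F7 and urokinase, was at 173 ± 6.46 and 169 ± 15.8 CPM (−0.04).

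Of the protease receptors, F2r, the thrombin receptor PAR1, and F2rl1, the trypsin and tryptase receptor PAR2, lie within 107 kb of chromosome 13 on the minus strand. F2r was at 30.9 ± 1.99 and 33.5 ± 2.56 CPM (log2 fold change 0.12). F2rl1 (95511732 to 95525240) was at 0.656, 0.493, 0.0661 and 0.499 CPM in the WT replicates and 1.12, 0.728, 1.05 and 1.28 CPM in the KO replicates. All KO libraries lay above all WT libraries, and WT replicate 3, with 2 counts, was the lowest. F2rl1 had a log2 fold change of 1.30 (SE 0.52, unadjusted p = 0.0258, edgeR adjusted p = 0.2), with a 95% interval from 1.13-fold to 5.33-fold. Within the 4-digit series the log2 difference was 0.66, and within the low series, whose only WT library is WT replicate 3, it was 3.11. Without WT replicate 3 the log2 fold change was 0.91 (edgeR adjusted p = 0.216).

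Markers of other liver cells were measured in the same libraries. Of 11 tested bile duct markers 9 were called higher, where 2.32% of all genes tested were called higher. Their median log2 fold change was 2.04, and the summed level of the list was 70.2 to 94.5 CPM in WT and 200.1 to 303 CPM in KO libraries. Of 10 stellate cell and fibroblast markers 3 were called higher, with sums of 390.5 to 436 and 480.004 to 565 CPM. All 10 log2 fold changes were above 0, and in 8 of the 10 the groups did not overlap, against 11.2% of all genes tested. The summed macrophage markers overlapped, at 345 to 437 and 359.9 to 472 CPM, with none of 11 called. The part of these cells in the levels of Plat, F2rl1, F3, Plau and Plaur was not tested. Of 9 platelet and megakaryocyte markers Gp9 and Gp1bb were at 0 in every library and the list summed to at most 5.14 CPM. Of 5 red blood cell, 6 lymphocyte and 4 neutrophil markers tested none was called, with median log2 fold changes of −0.95, −0.15 and −0.65.

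The vitamin K cycle serves the modification of the factors, and the cargo receptor of F5 and F8 supports the secretion of those 2. Ggcx, the gamma-carboxylase (chromosome 6, 72414308 to 72430712, plus strand), was at 43.8, 48.9, 67.5 and 53.6 CPM in the WT replicates and 53.8, 64.5, 72.5 and 72.5 CPM in the KO replicates. WT replicate 3 was above KO replicates 1 and 2, and the groups overlapped. The log2 fold change was 0.30 (SE 0.13, unadjusted p = 0.0423, edgeR adjusted p = 0.255). Within the 4-digit series the log2 difference of Ggcx was 0.28, within the low series 0.10, and with the series as a covariate the log2 fold change was 0.22 (edgeR adjusted p = 0.216). Without WT replicate 3, which leaves low-series animals in KO only, it was 0.44 and was called (edgeR adjusted p = 0.0305). Vkorc1, the vitamin K epoxide reductase that recycles the cofactor, was at 31.1 ± 3.12 and 30.1 ± 3.90 CPM (−0.05). Gm21974 shares 52.3% of its exon bases on the same strand, and reads there were left out, so its level is a lower limit. The receptor subunits Lman1, at 298 ± 20.8 and 278 ± 25.5 CPM (−0.10), and Mcfd2, at 229 ± 42.2 and 221 ± 19.6 CPM (−0.05), had 95% intervals from 0.802-fold to 1.08-fold and 0.799-fold to 1.16-fold.

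**Figure D4:**
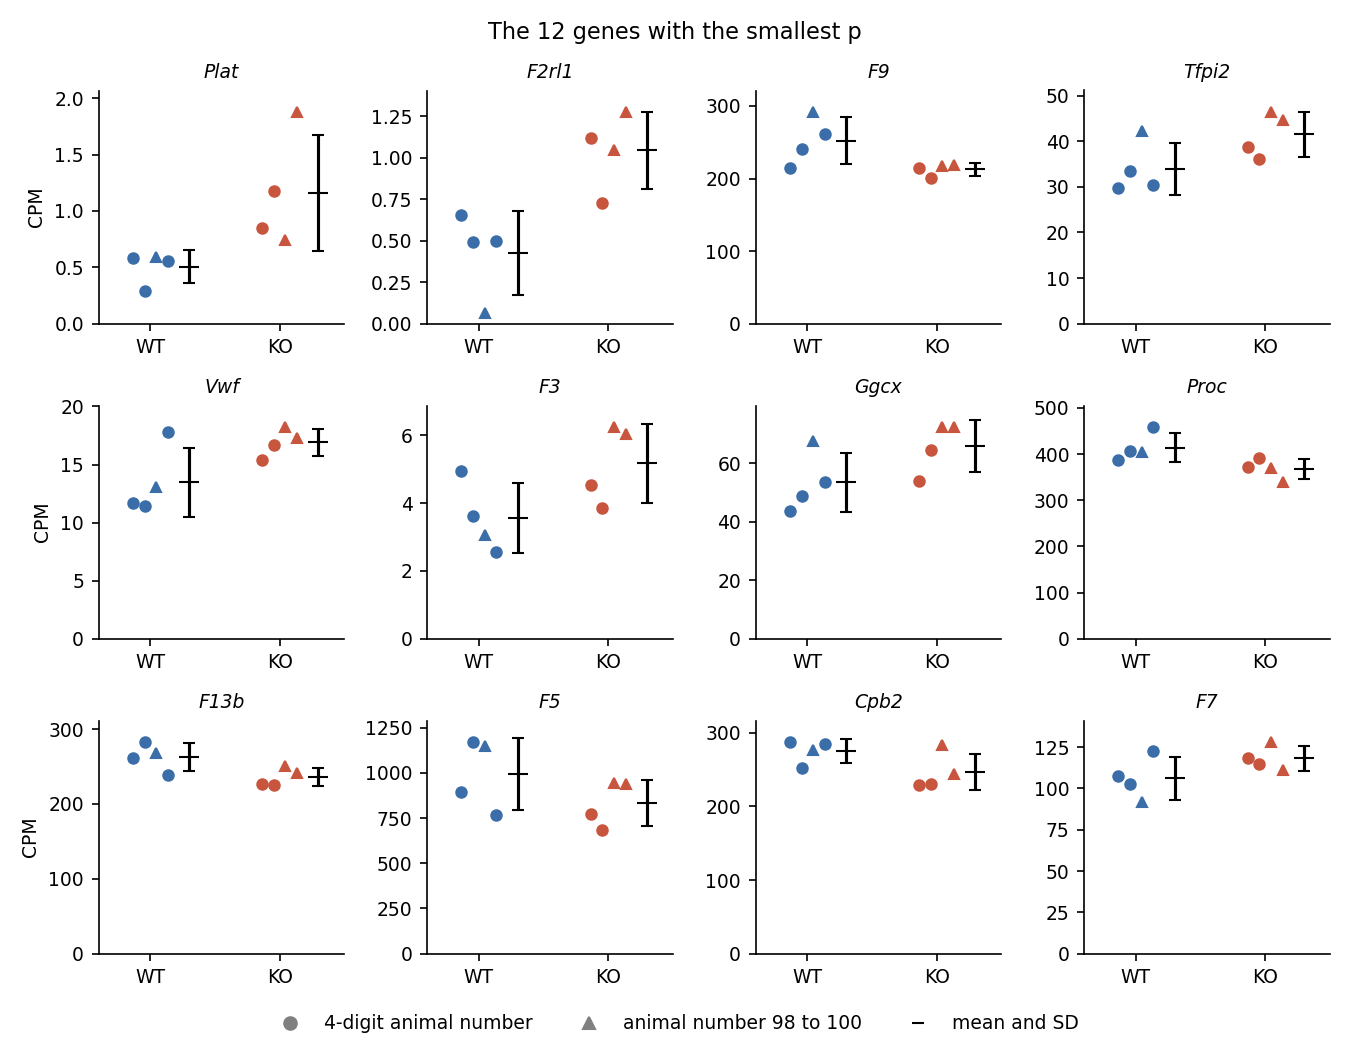
CPM by library for the 12 members with the smallest p, WT in blue and KO in red, with the mean and SD (n = 4) beside the points and triangles for animals numbered 98 to 100. Plat and F2rl1 show KO points above all WT points at levels under 2 CPM, and in the other panels points of the groups overlap.

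**Figure D5:**
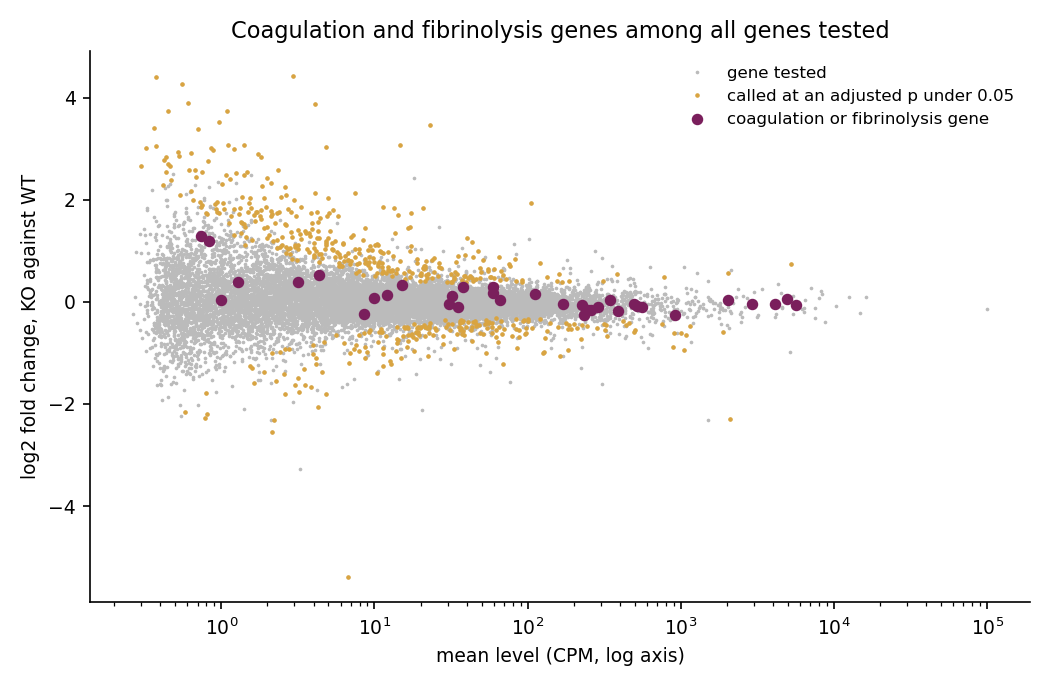
Log2 fold change, KO against WT, against mean level (CPM, log axis) for the 14645 genes tested, with genes called at an adjusted p under 0.05 in yellow and the 35 members in purple. The members above 100 CPM lie between −0.25 and 0.16, and no member is called.

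The number series of the animals was compared as well. In a fit with genotype and series as terms, added after the values were seen, F11 was called higher in the animals numbered 98 to 100, the only one of 35 members, where 2.41% of all genes tested were called and 1.43% called higher. It was at 48.2, 53.9 and 52.1 CPM in the WT libraries and 57.5 and 48.5 CPM in the KO libraries of the 4-digit series, against 69.6 CPM in WT replicate 3, 67.5 CPM in KO replicate 3 and 78.5 CPM in KO replicate 4. The log2 fold change was 0.45 (SE 0.09, edgeR adjusted p = 0.0175), and the call was lost without WT replicate 3, KO replicate 2 or KO replicate 4. Proz, Tfpi2 and Ggcx also showed no overlap between the series, which 11.1% of all genes did, with log2 fold changes of 0.31, 0.35 and 0.37 (edgeR adjusted p = 0.12, 0.0515 and 0.0504). An edgeR interaction test of genotype and series called 0 members, where 0.0205% of all genes tested were called. The low series holds 1 WT library, WT replicate 3. The test therefore cannot decide whether the difference between genotypes depended on the series in any member. The largest interaction among the members was that of F2rl1, at 3.31 in log2 (low minus 4-digit series), with 2 counts in WT replicate 3.

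A list of 32 other haemostasis genes was compared in the same fit, and 25 of them were tested. Of these 4 were called higher and 2 lower in the libraries labelled KO, where 2.32% of all genes tested were called higher and 1.37% lower. Their median log2 fold change was 0.07. The list was chosen with earlier results of these data known, so its counts cannot show an excess over all genes. Serpine2, a cell-surface inhibitor of thrombin and urokinase, rose from 2.14 ± 0.38 to 6.71 ± 0.51 CPM (log2 fold change 1.65, SE 0.20, edgeR adjusted p = 0.000543). Anxa2, a cell-surface docking protein for plasminogen and Plat, rose from 10.8 ± 1.94 to 18.8 ± 1.87 CPM (0.80, edgeR adjusted p = 0.0065), and Gas6, a vitamin K-dependent ligand related to Pros1, from 47.3 ± 9.59 to 73.8 ± 7.80 CPM (0.64, edgeR adjusted p = 0.0139). Serpinf2, the plasmin inhibitor alpha-2-antiplasmin, rose from 650.4 ± 94.5 to 912 ± 107 CPM (0.49, edgeR adjusted p = 0.0483). Hrg, histidine-rich glycoprotein, fell from 1204 ± 50.3 to 791 ± 14.2 CPM (−0.61, edgeR adjusted p = 0.00341). Vkorc1l1, a paralogue of Vkorc1, fell from 42.6 ± 3.32 to 32.4 ± 2.97 CPM (−0.40, edgeR adjusted p = 0.0378; SD and n = 4 each for all 6 genes). In each of these genes all KO libraries lay on one side of all WT libraries, above in 6.19% and below in 5.01% of all genes tested. The calls of Serpine2, Anxa2 and Hrg held without any single library. Those of Serpinf2 and Vkorc1l1 were each lost without WT replicate 1, WT replicate 2, KO replicate 1 or KO replicate 3, that of Serpinf2 also without KO replicate 4 and that of Vkorc1l1 also without KO replicate 2, and that of Gas6 without WT replicate 2 or KO replicate 3. The call of Serpinf2 was also lost with RLE scaling (edgeR adjusted p = 0.0509), limma-voom (adjusted p = 0.0524) and non-robust dispersion (edgeR adjusted p = 0.0585), and that of Vkorc1l1 with upper quartile scaling (edgeR adjusted p = 0.0506). Within either number series alone neither was called, and Gas6 was not called within the low series.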

How the data were processed

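RNA-seq libraries of 4 livers labelled WT and 4 labelled KO were analysed, grouped by their titles. The authors deposited raw read counts per gene, and per the file headers they were made with featureCounts 1.5.1 on the Ensembl 81 annotation of mm10 with strand setting 2 and a minimum mapping quality of 1, with no option recorded for multi-mapping or multi-overlapping reads. Per the submitters' processing notes, bcl2fastq 2.19.1 and GSNAP came before. The exon length of each gene is also in the deposited table, and reads per kilobase were computed from it. Depth was 18649618 to 31249286 counts, and 92 spike-in rows with 0 counts were left out.

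Counts were fitted in R 4.3.3 with edgeR 4.0.16 (quasi-likelihood test, robust dispersion, TMM scaling, filterByExpr at a minimum count of 10). P-values were adjusted by Benjamini-Hochberg over all genes tested, and calls were made at an adjusted p under 0.05. The SE was derived from the F statistic and the 95% intervals from it. Levels are CPM on TMM-scaled library sizes, and log2 differences use a prior count of 2. Symbols came from a GENCODE M21 table, which held 45143 of the 45706 gene identifiers. Alternatives were RLE and upper quartile scaling, no filter or a minimum count of 50, DESeq2 1.42.0, limma-voom (limma 3.58.1), non-robust dispersion, number series as a covariate, a replicate block, each number series alone, a prior count of 0.5 and leaving out each library. The fit was tested on simulated data. Values are given by library for members with an unadjusted p under 0.05 and further members in order of p up to 12, for the fibrinogen chains, and for F2, Fgl1 and F11, which were chosen after their values were seen. Members and lists were chosen with earlier results of these data known. Called genes of the other haemostasis list were named. All library pairs differed by more than sampling noise. Promoter sequences are from RefSeq, GRCm38.p6.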

Additional observations from a re-analysis of the deposited data

Results flagged for a closer look

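Among 72 groups of 4 libraries (36 matched genes in each genotype), 3 held a library far from the other 3 by Dixon's test at its 95% level, which chance does in about 1 of 20 groups. F13a1 was at 0 CPM in KO replicate 2, whereas the other KO libraries were at 0.338 to 0.387 CPM, on at most 11 counts. Plat was at 0.288 CPM in WT replicate 2 against 0.555 to 0.595 CPM in the other WT libraries. Plaur was at 1.66 CPM in WT replicate 4 against 0.911 to 0.958 CPM in the other WT libraries.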

How the results depend on the processing

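No member was called higher or lower under any alternative except without WT replicate 3 (0 to 2 higher when 1 library was left out) and among the animals numbered 98 to 100 (2 higher and 1 lower, of which F2rl1 had a log2 fold change of 4.04, F3 0.997 and F9 −0.43, with edgeR adjusted p of 0.0186, 0.0277 and 0.0205). The 340 genes called higher and 201 called lower over all genes became 613 and 495 with DESeq2 and 151 to 710 and 71 to 534 when 1 library was left out. Calls were 215 higher among the 4-digit animals, and 328 lower without a filter, 308 with the number series as covariate and 528 among animals 98 to 100. Upper quartile scaling gave 394 higher and 164 lower. Other haemostasis genes gave 2 to 6 higher and 1 to 3 lower without 1 library, 2 higher among animals 98 to 100 and 1 lower with upper quartile scaling. The number series called 4 members without a filter and 0 to 2 without 1 library. The cause of these shifts was not tested.

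With a replicate block 0 members, 353 genes higher and 211 lower were called, and 1 other haemostasis gene lower, Serpinf2 (edgeR adjusted p = 0.0567) and Vkorc1l1 (0.0632) losing their calls. The deviations of same-numbered libraries from their group means correlated weakly (r = 0.0255, 0.0251, 0.122 and −0.147 for numbers 1 to 4). Each value comes from 1 pair of libraries, so these values cannot decide whether the number pairs them.

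Some uncalled members changed sign. Among animals 98 to 100 the log2 fold changes were 0.066 for F10, 0.095 for Fga, 0.15 for Fgg, 0.26 for Fgl2, 0.13 for Habp2, 0.036 for Plg and −0.22 for Proz. With the number series as covariate they were 0.025 for Fga, 0.012 for Fgg and −0.037 for Proz, and among the 4-digit animals −0.028 for Pros1 and −0.069 for Tfpi. Without 1 library they ranged from −0.19 to 0.033 for Fga, −0.051 to 0.13 for Fgb, −0.13 to 0.015 for Fgg, −0.22 to 0.20 for Fgl1, −0.37 to 0.053 for Fgl2, −0.097 to 0.00069 for Habp2, −0.13 to 0.032 for Mcfd2, −0.16 to 0.23 for Procr, −0.087 to 0.17 for Pros1, −0.045 to 0.16 for Proz, −0.043 to 0.23 for Tfpi, −0.012 to 0.24 for Thbd and −0.12 to 0.015 for Vkorc1. Counts of at most 50 per library limit Plat, F2rl1, Procr and Plaur.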
